A study of Mus musculus with 23 samples.

Results

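The ER and amino acid stress genes described here were 9 genes chosen by symbol: Atf4, Ddit3, Asns, Trib3, Chac1, Ddit4, Sesn2, Hspa5 and Xbp1. All 9 were found by gene name among the 23369 gene names of the RNA-seq tables, and their values were taken as deposited, in FPKM (fragments per kilobase of transcript, scaled to the depth of the library). The study examined how the CpG island binding protein KDM2B brings the variant PCGF1/PRC1 complex to chromatin, and its expression arm comprised 6 of the 23 samples of the series. Those 6 were polyA+ RNA from mouse embryonic stem cells (ESCs) that were Kdm2b fl/fl, meaning that both alleles carried loxP sites around the exon for the ZF-CxxC domain, and that carried ERT2-Cre at one Rosa26 allele. Both groups shared this genotype: 3 samples were labelled untreated, and 3 were labelled as given tamoxifen for 72 hr, at 800 nM by the sample labels and 800 µM by the series text. The labels name the cells MS12, while the methods describe lines established by crossing mice whose allele had been made in MS12 cells. They were kept with leukaemia inhibitory factor on inactivated embryonic fibroblast feeders and were plated without feeders before treatment, and the number of independent lines was not given in the sources used here. The effects of tamoxifen, of Cre activity and of the deletion cannot be told apart, because both groups carried the floxed alleles and Cre and no vehicle group or group of cells without Cre entered the RNA-seq. The names of the deposited tables gave the opposite reading of untreated and treated for all 6 samples. The labels were followed, and under the other reading every direction below would turn around.

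The 9 genes report on how a cell responds to misfolded protein in the endoplasmic reticulum (ER) and to a shortage of amino acids. Several kinases phosphorylate the translation factor eIF2alpha, which lowers general translation but raises translation of ATF4, and ATF4 then drives genes for amino acid synthesis, amino acid transport, tRNA charging and feedback control. In the ER, the sensors PERK, IRE1 and ATF6 start the unfolded protein response, in which IRE1 splices the Xbp1 mRNA and ATF6 and XBP1 raise chaperones such as the product of Hspa5. ATF4 is set largely by translation and XBP1 by splicing, and neither is visible in gene-level FPKM, so the values below are transcript levels only.

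The promoters are shown first, since the best known element of each branch is a short sequence near the start of the gene. RefSeq promoters (GRCm38.p6, 250 bases before to 50 bases after the start) were matched for 9 of the 9 genes, and those that held an element searched for are given 5′ to 3′ on the gene's strand, with the element in capitals. In the first 3 the capitals mark the C/EBP-ATF response element TGATGNAAN, at which ATF4 and C/EBP proteins bind, and in the last they mark the ER stress response element, CCAAT followed after a gap of 9 bases by CCACG.
Asns, chr6:7693160-7693459, minus strand: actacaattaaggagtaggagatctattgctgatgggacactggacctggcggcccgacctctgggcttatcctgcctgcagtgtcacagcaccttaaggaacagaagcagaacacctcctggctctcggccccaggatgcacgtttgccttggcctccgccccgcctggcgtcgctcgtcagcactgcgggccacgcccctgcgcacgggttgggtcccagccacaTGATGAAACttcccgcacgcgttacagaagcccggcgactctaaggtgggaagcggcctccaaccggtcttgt
Chac1, chr2:119350992-119351291, plus strand: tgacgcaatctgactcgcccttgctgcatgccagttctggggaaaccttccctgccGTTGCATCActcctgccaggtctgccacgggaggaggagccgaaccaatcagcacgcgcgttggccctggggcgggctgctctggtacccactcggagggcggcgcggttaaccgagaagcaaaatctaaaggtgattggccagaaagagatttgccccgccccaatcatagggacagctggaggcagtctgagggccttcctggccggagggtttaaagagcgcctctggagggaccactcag
Trib3, chr2:152344011-152344310, minus strand: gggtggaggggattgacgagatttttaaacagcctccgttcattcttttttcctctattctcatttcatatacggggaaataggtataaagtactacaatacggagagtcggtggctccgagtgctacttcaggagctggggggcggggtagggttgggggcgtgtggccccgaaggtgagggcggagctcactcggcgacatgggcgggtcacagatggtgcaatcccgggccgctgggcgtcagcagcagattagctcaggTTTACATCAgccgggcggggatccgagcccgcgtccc
Hspa5, chr2:34771840-34772139, plus strand: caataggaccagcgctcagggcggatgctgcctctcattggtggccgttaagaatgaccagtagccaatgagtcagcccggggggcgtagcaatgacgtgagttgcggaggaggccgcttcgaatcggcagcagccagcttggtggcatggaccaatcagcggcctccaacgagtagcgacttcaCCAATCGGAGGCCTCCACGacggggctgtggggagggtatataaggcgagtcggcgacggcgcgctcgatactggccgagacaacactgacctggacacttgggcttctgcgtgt

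The C/EBP-ATF element began 23 bases upstream of the start in Asns, where it read TGATGAAAC on the gene's strand. In Chac1 the 9 bases lay on the other strand, 194 to 186 bases upstream, and read TGATGCAAC there. In Trib3 they lay on the other strand 13 to 21 bases after the start and read TGATGTAAA. Thus 3 of 9 promoters held this element, beside 3.95% of all 32851 promoters in the table. The ER stress response element of Hspa5 began 65 bases upstream and was found in 0.119% of all promoters. The second ER stress response element (ATTGG, 1 base, CCACG) and the core TGACGTGG of the element bound in the unfolded protein response were each found in 0 of the 9 promoters, with shares of 0.0365% and 0.676% over all promoters. Both strands were searched, and no match overlapped another. Matches are descriptions of these 300 bases and not measured binding.

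In untreated ESCs the 9 genes spanned a wide range of levels, and because FPKM is scaled to length the levels can be set beside each other. Hspa5, which encodes the ER chaperone BiP, had the highest mean (322 ± 137 FPKM, SD, n = 3), and its lowest untreated sample, at 239.7 FPKM, lay above the highest of Atf4. Atf4, the transcription factor at the centre of the response, followed at 164 ± 21.4 FPKM, and Asns, the asparagine synthetase, at 116 ± 45.1 FPKM. Atf4 and Asns overlapped in range, as did Asns with Ddit4 (86.2 ± 47.9 FPKM) and Ddit4 with Xbp1 (82.6 ± 22.8 FPKM), so the order among these neighbours was within their spread. The values of Atf4, Asns and Ddit4 also lay above the upper bounds deposited with them. Sesn2 (35.0 ± 4.45 FPKM), Trib3 (14.4 ± 2.33 FPKM) and Chac1 (4.78 ± 0.292 FPKM) each lay apart from their neighbours in every untreated sample. Ddit3, which encodes CHOP, was listed at 0 in all 6 samples.

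**Figure D1:**
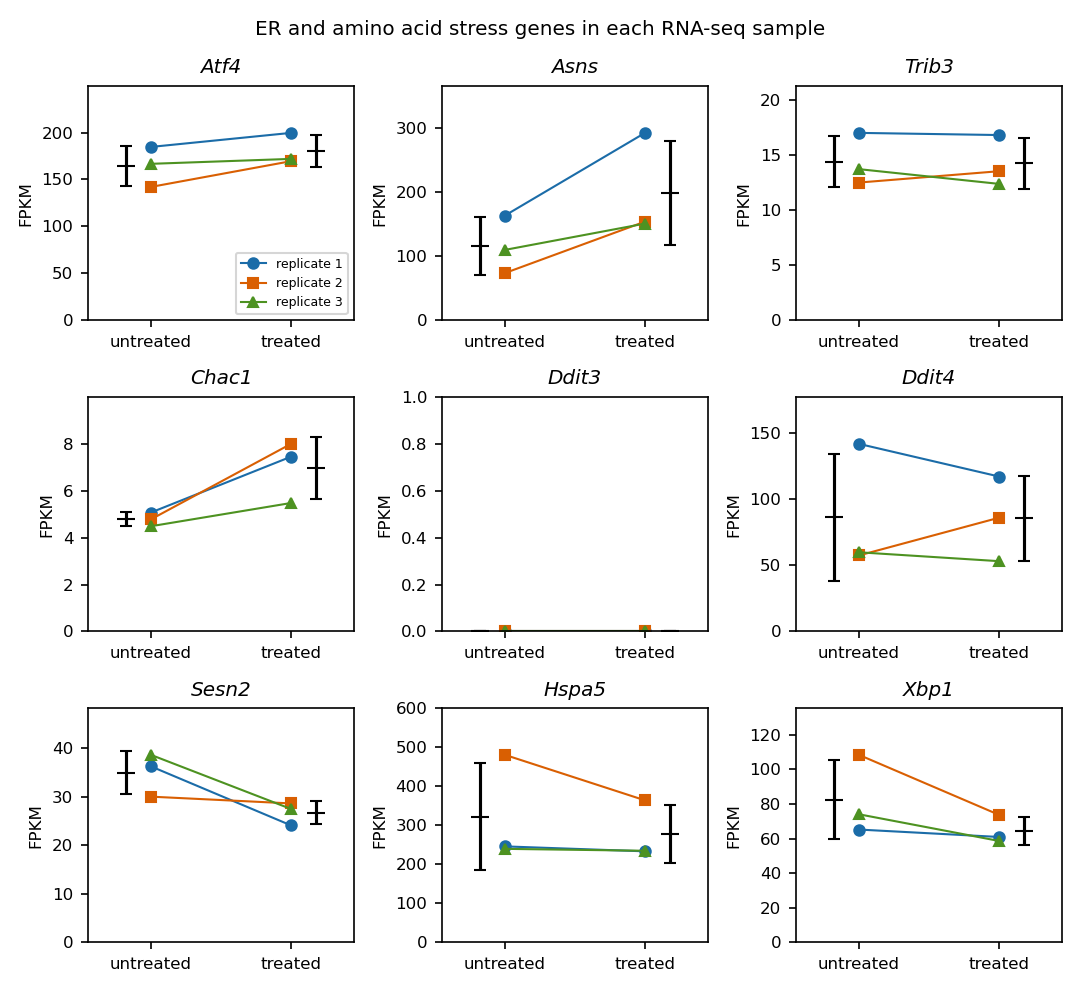
FPKM (vertical axes, each from 0) of the 9 genes in the untreated and treated samples; lines join samples with the same replicate number, and black bars beside the points are the group mean ± SD (n = 3). Asns, Chac1 and Atf4 were higher in the treated sample of all 3 numbers, Sesn2, Hspa5 and Xbp1 were lower in all 3, and Ddit3 was listed at 0 throughout.

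A pair of tests was run for each gene on log2(FPKM + 0.1) with limma, with Benjamini-Hochberg adjustment over the 12964 genes that reached 0.5 FPKM in at least 3 of 6 samples. One compared the groups as they stood, and the other kept the replicate number as a block, since samples with the same number deviated from their group means together. A gene was called when its adjusted p was below 0.05, and fold changes on this scale understate changes of low genes. Of the 9 genes, 8 were tested. Without the block 0 of the 8 were called, with adjusted p of 0.999 or more for each, and 0 had an unadjusted p below 0.05, beside 625 of all genes tested. Over all genes this test called 0.0231% higher and 0.00771% lower. With the replicate block 2 of the 8 were called higher, namely Asns and Chac1, beside 4.5% of all genes, and 0 were called lower, beside 6.33% of all genes. Of the 8, 4 had an unadjusted p below 0.05 in that test, beside 3896 of all genes tested. Counting direction alone, 3 genes were higher in all 3 pairs (24.8% of all genes) and 3 were lower in all 3 (28.3% of all genes), counts not far from the background for a set of 8. The median log2 difference of the 8 genes was 0.01, beside -0.02 over all genes (SD 0.48).

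Asns, which makes asparagine from aspartate and glutamine and lies at chr6:7625171-7643182 (mm9, minus strand), had the largest difference of the set. The untreated samples held 163, 73.8 and 109.9 FPKM in replicates 1, 2 and 3, and the treated samples 292, 154 and 151 FPKM. Each treated sample lay above its untreated partner, by 1.79-fold, 2.09-fold and 1.37-fold, but the groups overlapped, because untreated replicate 1 was higher than treated replicates 2 and 3. The log2 difference was 0.78 with an SE of 0.37 without the block and 0.12 with it (95% interval with the block 0.50 to 1.07, limma adjusted p = 0.0115). Without replicate 2 the difference was 0.65 and the adjusted p was 0.0982, with an unadjusted p of 0.00261. The calls over all genes without that replicate went from 583 to 38 higher, so the loss of this call was not particular to Asns.

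Chac1, which encodes an enzyme that breaks down glutathione, was the lowest expressed of the tested genes (chr2:119176978-119180062, mm9, plus strand). It held 5.07, 4.78 and 4.49 FPKM in the untreated samples and 7.45, 8.00 and 5.48 FPKM in the treated ones. All treated samples lay above all untreated samples, a pattern found in 3.09% of genes tested. Within the numbers the treated level was 1.47-fold, 1.67-fold and 1.22-fold of the untreated one, and the log2 difference was 0.52 (SE 0.13 with the block, 0.24 without). The limma adjusted p with the block was 0.0446, close to the threshold. It was 0.267 without replicate 2 (log2 difference 0.41), 0.0574 without replicate 3 (0.64) and 0.100 after scaling the FPKM of each sample to a common total (TPM scaling, 0.62). The call was lost in each of these settings, although the difference was larger than 0.52 in the last 2.

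Atf4 itself (chr15:80085614-80087971, mm9, plus strand) was at 185, 142 and 167 FPKM in the untreated and 199.6, 169 and 172 FPKM in the treated samples. The treated sample was the higher of each pair, but the groups overlapped. The log2 difference was 0.14, with a 95% interval from -0.08 to 0.35 in the blocked test (limma adjusted p = 0.352).

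Trib3, a pseudokinase that is induced by ATF4 and restrains it in turn, was at 17.0, 12.5 and 13.7 FPKM in the untreated samples and at 16.8, 13.6 and 12.4 FPKM in the treated samples (chr2:152163161-152169796, mm9, minus strand). The groups covered nearly the same range, and only the pair of replicate 2 was higher after treatment. The log2 difference was -0.02, with a 95% interval from -0.26 to 0.22 (limma adjusted p with the block = 0.933), and its sign turned under TPM scaling and quantile normalization. Trib3 thus did not pass the test beside Asns and Chac1, with which it shared the C/EBP-ATF element in the promoter window.

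Ddit3 (chr10:126727849-126733344, mm9, plus strand) could not be tested. Its row was listed at 0 in the 6 samples with a normal status, and the upper bounds deposited with those zeros ran from 0.0848 to 0.129 FPKM. It was the only one of the 9 genes whose row overlapped that of another gene, sharing 68 bp with Mars on the opposite strand. Mars, the methionyl-tRNA synthetase, held 59.2 to 94.8 FPKM in the untreated and 76.1 to 109.97 FPKM in the treated samples. Atf5, another bZIP factor of this response, was likewise listed at 0 in all 6 samples and shared 289 bp with rows of Nup62. In all, 4521 of the 23369 gene names were listed at 0 throughout. Whether the overlaps had a part in these zeros was not tested, and nothing was read from them about the expression of CHOP.

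Ddit4 and Sesn2 encode inhibitors of mTORC1 signalling that are raised under several stresses. Ddit4 (chr10:59412423-59414518, mm9, minus strand) held 141, 57.3 and 59.7 FPKM in the untreated samples and 117, 85.8 and 53 FPKM in the treated samples. Replicate 1 was the highest of each group, and the pairs went in different directions, with the treated level at 0.826, 1.497 and 0.888 of the untreated one. The log2 difference was 0.04 (95% interval with the block -0.33 to 0.42, limma adjusted p = 0.878), and it turned to -0.22 without replicate 2.

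Sesn2, a leucine sensor and antioxidant protein of the sestrin family (chr4:132048722-132066371, mm9, minus strand), held 36.3, 30.0 and 38.7 FPKM in the untreated samples. In the treated samples it held 24.1, 28.6 and 27.5 FPKM. All treated samples lay below all untreated samples, a pattern found in 5.41% of genes tested. The pair of replicate 2 differed least, at 0.954 of the untreated level, beside 0.665 and 0.712 in the pairs of replicates 1 and 3. The log2 difference was -0.38 with a 95% interval from -0.66 to -0.10, and the limma adjusted p was 0.0842 with the block, so Sesn2 was not called.

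Hspa5 and Xbp1 stand for the ER branch. Hspa5 (chr2:34627610-34632049, mm9, plus strand) was at 246, 481 and 239.7 FPKM in the untreated samples and at 233, 364 and 235 FPKM in the treated samples. Both samples numbered 2 stood above the other 4, which lay within 233 to 246 FPKM whichever group they belonged to. The treatment difference was -0.17 on the log2 scale (95% interval with the block -0.42 to 0.08, limma adjusted p = 0.322), with the largest drop in the pair of replicate 2. Leaving out both samples numbered 2 gave -0.05 with the block. Without untreated replicate 2 alone, which breaks that pair, the test without a block gave 0.16.

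Xbp1, which encodes the transcription factor made active by IRE1 splicing (chr11:5420644-5425996, mm9, plus strand), was likewise highest in untreated replicate 2. It held 65.3, 108 and 74.1 FPKM in the untreated and 61.0, 73.8 and 58.7 FPKM in the treated samples, lower in every pair. The groups overlapped, since treated replicate 2 lay above untreated replicate 1. The log2 difference was -0.33 (95% interval -0.58 to -0.08, limma adjusted p with the block = 0.0948). Without replicate 1 it was -0.45 and passed the threshold (limma adjusted p = 0.0200). The calls over all genes without that replicate rose from 820 to 1080 lower, so a gained call was not particular to Xbp1.

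**Figure D2:**
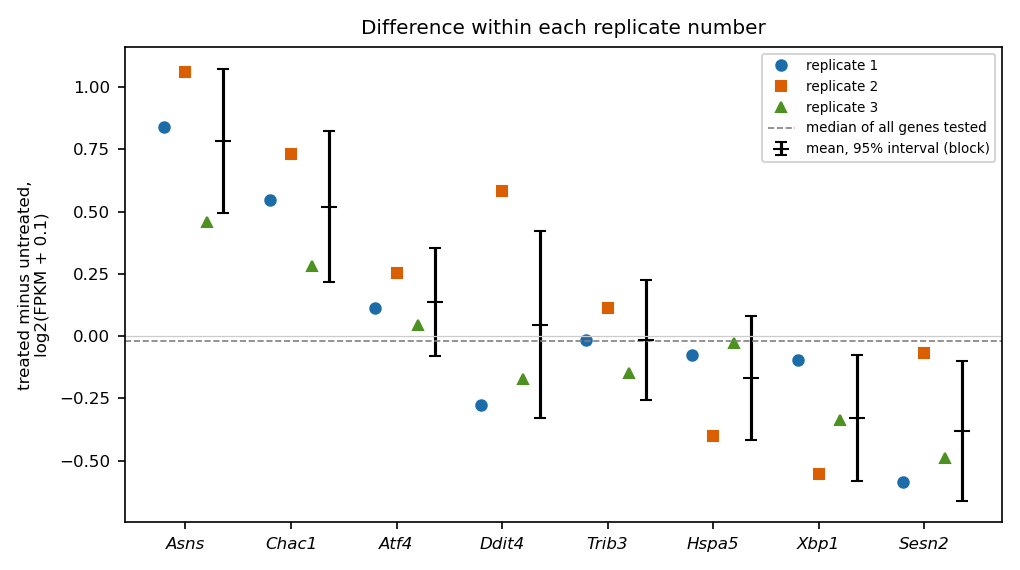
Treated minus untreated log2(FPKM + 0.1) of the 8 tested genes in each replicate number (coloured symbols), with the mean and its 95% interval from the blocked limma fit (black) and the median of all genes tested (dashed line, -0.02). Asns (0.78) and Chac1 (0.52) lie highest with all pairs above 0, Xbp1 (-0.33) and Sesn2 (-0.38) lie lowest with all pairs below 0, and the pairs of Ddit4 and Trib3 lie on both sides.

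The replicate number separated samples by more than treatment for most of these genes, as it did for most genes tested. In 6 of the 8 the range of the means of the 3 replicate numbers was larger than the treatment difference, beside 89.4% of all genes tested. A range over 3 means tends to exceed a difference of 2, so this measure favours the replicate number. An F test of the replicate number in the blocked limma fit called 5 of the 8, Asns, Trib3, Ddit4, Hspa5 and Xbp1, beside 63.1% of all genes, so that this count was close to the background. The direction differed between genes. Replicate 2 exceeded the mean of replicates 1 and 3 by 0.81 on the log2 scale for Hspa5 (adjusted p of the F test in limma = 0.00314) and by 0.47 for Xbp1 (adjusted p = 0.0234). It also lay higher for Chac1 (0.16) but lower for Atf4 (-0.22), Trib3 (-0.19), Ddit4 (-0.28) and Sesn2 (-0.08). Chac1, Atf4 and Sesn2 were not called by the F test. For Asns replicate 2 lay at -0.65 relative to the mean of replicates 1 and 3 (adjusted p = 0.00329), whereas for Ddit4 replicate 1 stood 1.03 above the mean of replicates 2 and 3 (adjusted p = 0.00477). These sizes come from FPKM without further scaling. The sum of all FPKM was itself highest in the samples numbered 2, although the median difference over all genes was -0.07. Under TPM scaling the F test called 6 of the 8, but the sizes were not computed again.

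The wider pathway was described with 10 lists of genes that hold none of the 9, comprising 124 genes of which 123 were tested. The lists were chosen with earlier results of these data known. Their counts beside the shares over all genes are therefore descriptions and not independent tests. Without the block 0 of the 123 were called by limma and 9 had an unadjusted p below 0.05, beside 625 of the 12964 genes tested. With the block 11 were called higher (8.94%) and 14 lower (11.4%), beside 4.5% and 6.33% of all genes. The median log2 difference was -0.06, beside -0.02 over all genes. Without replicate 2 the blocked test called 1 higher and 2 lower of the 123, and it called 17 and 19 without replicate 1 and 5 and 11 without replicate 3. Without replicate 2 its calls over all genes went from 583 to 38 higher and from 820 to 49 lower. Without replicate 1 they rose to 800 higher and 1080 lower. The calls below are those of the blocked limma test unless said otherwise.

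Upstream of Atf4, 0 of the 7 genes for eIF2alpha, its kinases and its phosphatase subunits were called, beside 4.5% higher and 6.33% lower over all genes. An unadjusted limma p below 0.05 was found for 3 of them, beside 3896 of the 12964 genes tested. Their median log2 difference was -0.16. Among the kinases, Eif2ak1, the haem-regulated kinase, differed by -0.16, Eif2ak2, the kinase activated by double-stranded RNA, by -0.13, and Eif2ak3, which encodes PERK, by -0.26. Eif2ak4, which encodes the amino acid sensor GCN2, differed by 0.18 (95% interval -0.21 to 0.56) and Eif2s1, which encodes eIF2alpha, by 0.22 (95% interval 0.02 to 0.43). Eif2ak4 was called higher without replicate 1 (0.42, limma adjusted p = 0.0464). For the phosphatase subunits, Ppp1r15a, which encodes the inducible subunit GADD34, differed by -0.32 (95% interval -0.62 to -0.02) and the constitutive Ppp1r15b by -0.30 (95% interval -0.52 to -0.07), lower in all 3 pairs each.

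Of the sensors of the unfolded protein response and the proteases that process ATF6, 0 of 5 were called, with 2 at an unadjusted p below 0.05. The shares called over all genes were 4.5% higher and 6.33% lower. Atf6b lay closest to the threshold. It held 23.9, 44.0 and 23.3 FPKM in the untreated and 18.6, 31.0 and 19.5 FPKM in the treated samples (log2 difference -0.37, limma adjusted p = 0.0515, and 0.0395 without replicate 1). Its relative Atf6 differed by -0.33, Ern1, which encodes IRE1, by -0.37, and the proteases Mbtps1 and Mbtps2 by -0.14 and -0.07. The value of Mbtps2 turned to 0.04 under TPM scaling, and Ern1 was at -0.05 without replicate 1.

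Many genes for serine, glycine, proline and one-carbon synthesis are known targets of ATF4. The list of 13 also held Pck2, Cth and Cbs, which are not enzymes of these syntheses. Of the 13 listed, 5 were called higher and 0 lower, beside 4.5% and 6.33% of all genes. In all 3 pairs 11 of the 13 were higher, beside 24.8% of all genes. The median log2 difference was 0.43. Pck2, the mitochondrial phosphoenolpyruvate carboxykinase, rose from 11.5, 7.34 and 6.26 FPKM to 20.9, 15.1 and 11.5 FPKM (log2 difference 0.92, SE 0.10 with the block, limma adjusted p = 0.00399). Mthfd2, a mitochondrial enzyme of folate metabolism, rose from 65.3, 39.4 and 47.7 FPKM to 83.6, 59.8 and 66.6 FPKM (0.48, SE 0.09, adjusted p = 0.0213). The other 3 called were the genes of the serine synthesis enzymes, Phgdh (0.47), Psat1 (0.44) and Psph (0.38). Without replicate 2 the test called 0 of the 13, with a median of 0.35. It called 8 without replicate 1 and 2 without replicate 3, when Mthfd2 was at an adjusted p of 0.0666.

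Of the 20 cytosolic aminoacyl-tRNA synthetases, which charge tRNAs, 4 were called higher and 0 lower, beside 4.5% and 6.33% of all genes. In all 3 pairs 16 were higher, beside 24.8% of all genes, and the median log2 difference was 0.26. Sars, for seryl-tRNA, rose from 85.5, 40.2 and 56.9 FPKM to 125.3, 63.5 and 75.4 FPKM (0.54, SE 0.09, limma adjusted p = 0.0149). Yars, for tyrosyl-tRNA, rose from 48.9, 25.4 and 34.8 FPKM to 63.8, 35.8 and 45.0 FPKM (0.41, SE 0.09, adjusted p = 0.0293). Under TPM scaling, quantile normalization or without replicate 3 the blocked test called 1 of the 20, and without replicate 2 it called 0. Yars did not pass in any of these 4 settings (adjusted p from 0.0531 to 0.186).

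Of 11 amino acid transporters, some of which ATF4 is known to drive, 0 were called higher and 1 lower, with a median of -0.13, beside 4.5% higher and 6.33% lower over all genes. The one called, Slc38a2, a sodium-coupled transporter of neutral amino acids, fell from 97.9, 250.1 and 160 FPKM to 62.0, 171 and 136 FPKM (log2 difference -0.48, SE 0.11, limma adjusted p = 0.0331). It was not called without replicate 1 (adjusted p = 0.0583), without replicate 2 (0.194) or under TPM scaling (0.222).

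The list of bZIP partners and feedback regulators of ATF4 and CHOP also held Stc2, Gdf15 and Vldlr, which are neither. Of its 9 tested genes, 6 did not pass, 1 was called higher and 2 lower, beside the same 4.5% and 6.33%, and the median was -0.09. Nupr1, a small stress-induced chromatin protein, rose from 17.8, 6.23 and 7.17 FPKM to 32.3, 10.2 and 11.1 FPKM (0.73, SE 0.10, limma adjusted p = 0.00887). Atf3, a bZIP factor induced by ATF4 and by other stress signals, fell from 6.38, 2.96 and 4.35 FPKM to 3.23, 2.54 and 2.33 FPKM (-0.68, SE 0.17, adjusted p = 0.0467). Stc2, a secreted glycoprotein, fell from 12.9, 23.3 and 11.7 FPKM to 8.54, 16.9 and 8.22 FPKM (-0.52, SE 0.10, adjusted p = 0.0204). Without replicate 2 none of these 3 calls was kept (adjusted p from 0.0824 to 0.139), and Atf3 was at 0.0562 without replicate 1 and 0.143 without replicate 3, and Stc2 at 0.0684 without replicate 3.

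**Figure D3:**
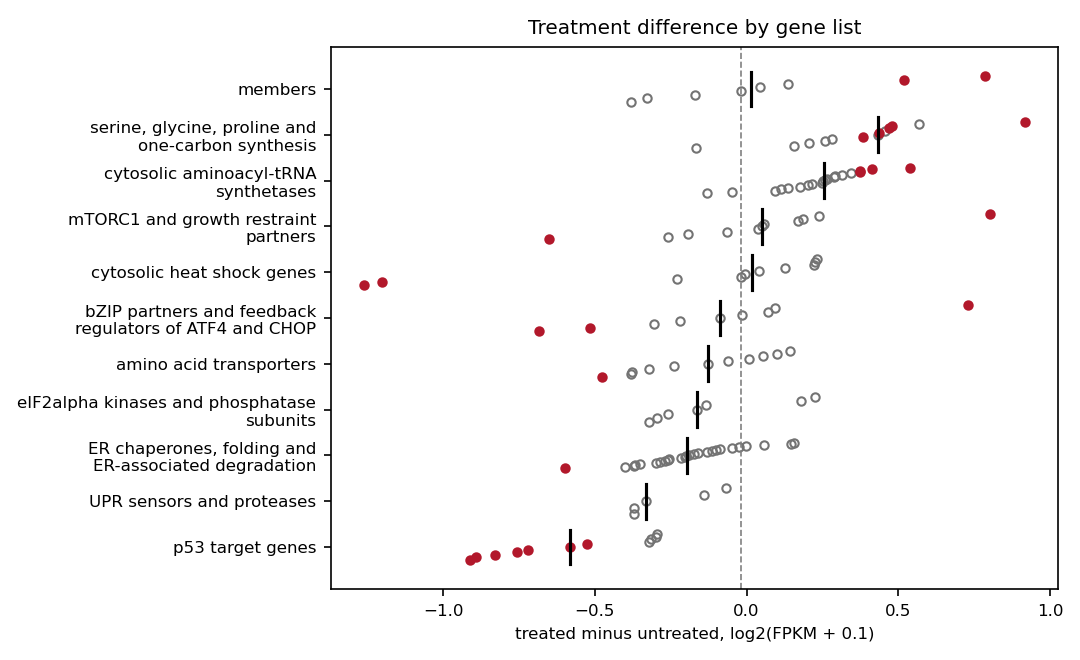
Treated minus untreated log2(FPKM + 0.1) for each tested gene of the 10 pathway lists and of the 9 stress genes (row "members"); filled red points passed the blocked limma test (adjusted p below 0.05), open points did not, black bars are list medians and the dashed line is the median of all genes (-0.02). The serine, glycine, proline and one-carbon genes (median 0.43) and the tRNA synthetases (0.26) lie mostly to the right and the p53 target genes (-0.58) to the left.

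Chaperones and degradation factors of the ER, the targets of the branch that Hspa5 and Xbp1 belong to, gave 0 of 26 called higher and 1 lower. Over all genes 4.5% were called higher and 6.33% lower. The median log2 difference was -0.20. In all 3 pairs 14 of 26 were lower and 0 higher, beside 28.3% and 24.8% of all genes. Syvn1, the ubiquitin ligase of ER-associated degradation, fell from 13.7, 34.7 and 15.2 FPKM to 7.68, 22.4 and 12.0 FPKM (-0.60, SE 0.12, limma adjusted p = 0.0227). It was not called without replicate 2 (adjusted p = 0.169) or under TPM scaling (0.159), and 5 of the 26 were called lower without replicate 1.

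These genes followed the replicate number in the same way as Hspa5. Replicate 2 was the highest number for 23 of 26, beside 3500 of the 12964 genes tested. The median was 0.76 on the log2 scale above the mean of replicates 1 and 3 (1.69-fold), beside -0.07 over all genes. The F test called 25 of 26, beside 63.1% of all genes. Their summed level was 4369 and 3395 FPKM in the untreated and treated samples numbered 2, and 2200.0 to 2288 FPKM in the other 4. These differences also come from FPKM without further scaling, and the sum of all FPKM was highest in the samples numbered 2 as well. The 5 sensor and protease genes were highest in replicate 2 as well (median 0.80), as were 10 of 11 amino acid transporters (median 0.87). The tRNA synthetases lay at the other end, with replicate 2 the lowest number for 16 of 20 (median -0.45), beside 4969 of the 12964 genes tested, and the serine, glycine, proline and one-carbon genes were lowest there for 10 of 13 (median -0.39), in the same direction as Asns.

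**Figure D4:**
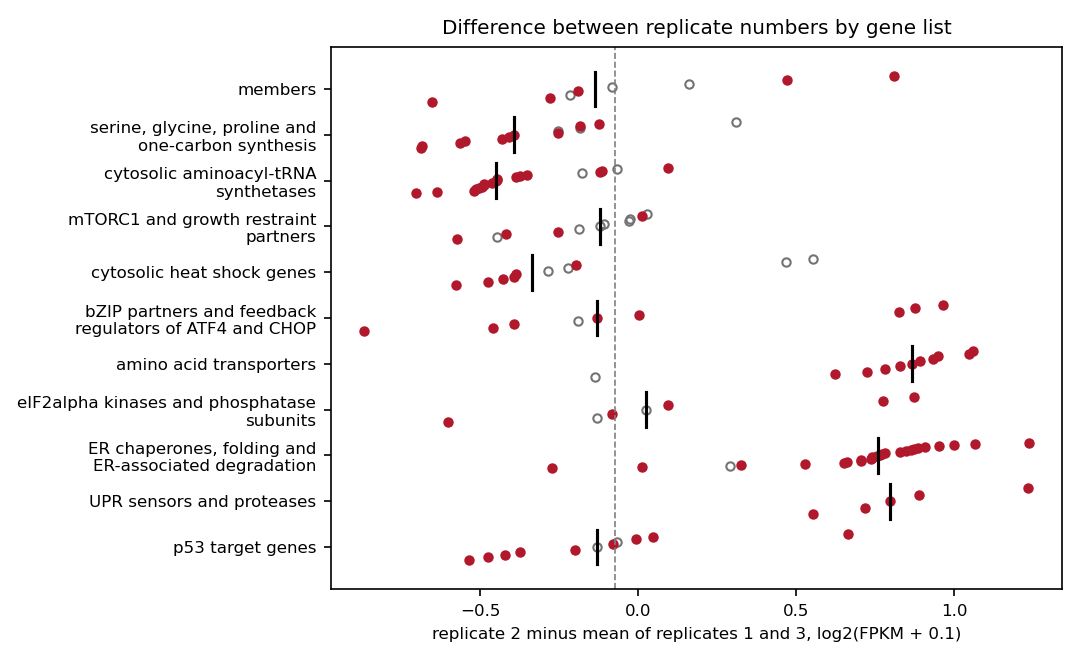
Replicate 2 minus the mean of replicates 1 and 3, log2(FPKM + 0.1) averaged over the untreated and treated sample of each number, for each tested gene of the 10 lists and of the 9 stress genes (row "members"). Filled red points passed the limma F test of the replicate number (adjusted p below 0.05), open points did not, black bars are medians and the dashed line is the median of all genes (-0.07); ER chaperones (0.76), transporters (0.87) and sensors (0.80) lie to the right and tRNA synthetases (-0.45) to the left.

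Other values moved with the replicate number too. The feeder fibroblast markers, 12 genes of which 11 were tested, were highest in replicate 2 for 8 of the 11 (median 0.77), beside 3500 of the 12964 genes tested. They were lowest there for 2, Acta2 (-0.74) and Tagln (-0.65), beside 4969 of the 12964. Their summed level was not highest in replicate 2, at 132, 218 and 300.0 FPKM in the untreated and 229.6, 188 and 195 FPKM in the treated samples. Of the 12, Lum was at or near 0 (at most 0.202 FPKM). By limma with the block 0 of the 11 were called between the groups, beside 4.5% higher and 6.33% lower over all genes. An unadjusted p below 0.05 was found for 0 of them in that test, beside 3896 of the 12964 genes. The part of these marker transcripts in the values of Hspa5, Xbp1 and the ER lists was not tested. In bulk RNA fewer cells of a type and less RNA per cell cannot be told apart. The sum of all FPKM was also highest in the samples numbered 2, at 1045710 and 929107, beside 549379 to 804941 in the other 4. The 10 ESC markers summed to 2892 to 5614 FPKM, and their median log2 difference was 0.17, beside -0.02 over all genes. With the block limma called 0 of the 10, beside the same 4.5% and 6.33%. An unadjusted p below 0.05 was found for 3 of them, beside the same 3896 of all genes. Replicate 2 was the lowest number for 7 of the 10 (median -0.38), beside 4969 of the 12964 genes tested.

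Genes that act on growth beside Ddit4 and Sesn2 gave 1 of 11 called higher and 1 lower, beside 4.5% and 6.33% of all genes. Gatsl3, now named Castor1 and encoding an arginine sensor that inhibits mTORC1, rose from 46.3, 38.3 and 28.9 FPKM to 82.9, 63.7 and 51.9 FPKM, with no overlap of the groups (0.80, SE 0.09, limma adjusted p = 0.00381), and it was called without replicate 2 as well (0.0469). Ddit4l, the paralog of Ddit4, fell from 5.64, 4.00 and 7.59 FPKM to 4.07, 2.82 and 3.74 FPKM (-0.65, SE 0.15, adjusted p = 0.0343). Its call was lost without replicate 2 (adjusted p = 0.147), without replicate 3 (0.156), under quantile normalization (0.0631) and under TPM scaling (0.196).

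The heat shock list, labelled cytosolic in the figures, also held Hspd1 and Hspe1, whose products are mitochondrial. Of its 10 genes 0 were called higher and 2 lower, beside 4.5% and 6.33% of all genes. The 2, Hspa1a and Hspa1b, encode nearly identical inducible HSP70 proteins and may share reads, so that their separate values are uncertain. Hspa1a fell from 3.20, 2.89 and 1.90 FPKM to 0.664, 1.47 and 1.10 FPKM (-1.26, SE 0.27, limma adjusted p = 0.0277), and Hspa1b by a log2 difference of -1.20 (SE 0.19, adjusted p = 0.0120). Without replicate 2 their adjusted p was 0.135 and 0.0855. The other 8 genes of the list did not pass, and the list median was 0.02.

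The p53 target genes were included because Sesn2 and Ddit4 are known to respond to p53 as well as to ATF4. The 11 genes listed were a chosen part of the known targets, picked with earlier results of these data known. Of these, 7 were called lower and 0 higher, beside 6.33% and 4.5% of all genes. All 11 were lower in all 3 pairs, beside 28.3% of all genes, and the median log2 difference was -0.58. Btg2, an antiproliferative factor, fell from 47.4, 35.5 and 37.9 FPKM to 24.7, 21.2 and 18.3 FPKM (-0.91, SE 0.10, limma adjusted p = 0.00381). Trp53inp1, a p53-induced nuclear protein, fell from 68.5, 90.4 and 127 FPKM to 36.0, 52.98 and 64.5 FPKM (-0.89, SE 0.09, adjusted p = 0.00334). Both were called without replicate 2 (adjusted p = 0.0436 and 0.0425), when 2 of the 11 passed. Sesn2 had the same sign (-0.38, not called), whereas Ddit4 was at 0.04.

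The genes whose profile over the 6 samples was nearest to the mean profile of Ddit3, Asns, Trib3, Chac1 and Sesn2 were Armc6, AI846148, Nob1, Tubb3 and Slc25a15. Likeness was measured as the root mean square difference of log2(FPKM + 0.1), each profile centred on its mean, over 6 samples. It was 0.0304 for Armc6 and 0.0516 for Slc25a15, beside a median of 0.346 over all genes. Ddit3 adds only a constant to this mean, and the mean itself joins genes that moved in opposite directions.

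Kdm2b, the gene with the floxed exon, was at 27.0, 21.5 and 27.7 FPKM in the untreated and 19.9, 21.9 and 25.0 FPKM in the treated samples (log2 difference -0.19, 95% interval with the block -0.45 to 0.08, limma adjusted p = 0.305). Gene-level FPKM does not resolve the deleted exon, so this value does not check the labels. The intervals deposited with the values did not serve as errors for these genes, since 19 of 48 values of the 8 tested genes lay outside their own interval, beside 15.5% over all genes tested. These included all 6 values of Atf4, of Asns and of Ddit4, each of which lay above its upper bound. The tables give no read counts. The commonest ratio among genes below 0.5 FPKM put the depth of the other 5 samples at 0.654 to 0.954 of untreated replicate 1, from the 9.53% to 12.8% of these genes that lay at that ratio.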

How the data were processed

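Directional paired-end libraries of polyA+ RNA were aligned by the authors to mm9 with TopHat2 (version 0.5 in the submitters' processing notes), and cuffdiff 2.1.1 was run on refGene models. The deposited values are FPKM per gene row, with an interval and a status, in 1 table per sample. Values of rows that share a gene name were added up, and names with a failed status (6) or a low data status (183) in any sample were left out. Genes with at least 0.5 FPKM in at least 3 samples were tested with limma 3.58.1 under R 4.3.3 after a log2 transform of FPKM + 0.1 (eBayes with trend, two-sided, Benjamini-Hochberg), first without a block and then blocked on the replicate number. No further normalization was applied. Other steps used Python 3.11.15, pandas 2.3.3 and numpy 2.4.6, and the fits were tested on simulated data.

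The numbers were taken to pair the samples: deviations from the group means correlated across the 12964 genes at r = 0.552, 0.613 and 0.505 between samples with the same number and at -0.384 to -0.103 between different numbers. Deviations cancel within each group, so the negative values partly follow from the positive ones and are not separate evidence of pairing. The study describes biological triplicates, and what a number shares was not given in the sources used here. Without the block, p-values measure the spread between samples within a group. With it, they measure the spread of the 3 differences within numbers. Both borrow variance across genes, and the blocked fit has few residual degrees of freedom, fewer when a replicate is left out. Groups came from the sample labels. With 3 samples against 3 an exact permutation test of a single gene cannot go below p = 0.1, so none was run.

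The 9 genes and the lists were chosen with earlier results of these data known. Named list genes were up to 2 with the highest and 2 with the lowest log2 difference among those called with the block, and every kinase, phosphatase, sensor and protease gene. Acta2, Tagln, Lum, Mars, Atf5, Phgdh, Psat1 and Psph were named after their values were seen. Alternatives were pseudocounts of 0.01 and 1, TPM scaling, quantile normalization, median of ratios scaling, the highest row per name, eBayes without trend, no filter, a stricter filter (1 FPKM in each of the 6), and leaving out each replicate. Keeping low data names, and the block with a pseudocount of 1 or with TPM scaling, were added after seeing the data. The ChIP-seq samples were not analysed here.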

Additional observations from a re-analysis of the deposited data

How the results depend on the processing

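The test without the block called 0 of the 8 tested stress genes in either direction. With the replicate block 2 were called higher, also with quantile normalization, median of ratios scaling or a pseudocount of 1, and 1 (Asns) with TPM scaling; the block changed no other call among the 8. With the block, leaving out each replicate gave 0 to 2 higher and 0 to 1 lower (Xbp1, without replicate 1). Of the 123 pathway list genes 11 were called higher and 14 lower with the replicate block, 8 and 12 with quantile normalization, 12 and 13 with median of ratios scaling, 13 and 17 with a pseudocount of 1, and 6 and 7 with TPM scaling. With the block, leaving out each replicate gave 1 to 17 higher and 2 to 19 lower, and the test without the block, leaving out 1 sample, called 0 in either direction. Over all genes the blocked calls were 583 higher and 820 lower, 468 and 355 with TPM scaling, 800 and 1080 without replicate 1, 38 and 49 without replicate 2, and 377 and 513 without replicate 3. Of the 8 genes, 5 differed between replicate numbers, 0 with no filter, 3 with eBayes without trend, and 3 to 4 when a sample was left out. TPM scaling moved the median log2 difference of all genes from -0.02 to 0.08. The sign of Trib3 (-0.02) turned to 0.087 with TPM scaling and 0.012 with quantile normalization, each with and without the block, and to 0.048 with the block and without replicate 3; leaving out samples gave -0.14 to 0.11. Ddit4 (0.04) turned to -0.025 with quantile normalization, with and without the block, and to -0.016 in the log2 ratio of group means; leaving out samples gave -0.22 to 0.47. Hspa5 (-0.17) turned to 0.16 without untreated replicate 2, which breaks its pair, and leaving out samples gave -0.38 to 0.16; with the block and a whole replicate left out it stayed at -0.24 to -0.05. The causes of these shifts were not tested. Atf4, Asns, Chac1, Sesn2 and Xbp1 kept their sign under every alternative run.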
